A study of Mus musculus with 12 samples.

Results

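The comparison of activin A with its vehicle, PBS, in primary cultured mouse granulosa cells rests on 8 of the series' 12 microarrays. Members were taken by sample title: Activin 1 to 4 against PBS 1 to 4. The cells of all arrays came from mice 21 to 23 days old, before puberty, as a pool of 14 to 20 ovaries per culture, and were treated in primary culture for 24 h. The experiment was done 4 times as separate biological replicates, and each experiment supplied 1 PBS array, 1 activin array and 1 array of activin A with its antagonist follistatin. The last 4 arrays enter here only through the common estimate of spread. No strain, transgene or deletion is named in the labels, and the activin dose is not given in the sources used here. RNA (100 ng) was amplified with a T7-based protocol and hybridised to Illumina Sentrix Mouse-6 BeadChips.

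Granulosa cells surround the oocyte in the ovarian follicle, divide as the follicle grows and make estradiol. Activin, a dimer of inhibin beta subunits, is a ligand of the transforming growth factor beta family that these cells both make and receive. It binds type II and type I serine kinase receptors, which phosphorylate Smad2 and Smad3. These join Smad4 and bind DNA at short elements that contain CAGAC. Follistatin, a secreted product of the same cells, binds activin and keeps it from its receptors.

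Deposited signals run from 6.75 to 16.2 and behave as log2 values. The control spots reached a mean of 7.31 at most, called background here, and 31.9% of the 46093 probes tested lay above it. Signals level off near that of the control spots, so a difference between signals close to 7.31 can understate the change. The files give no gene names: 9854 probes were named from numbers or accessions inside their identifiers, which gave 8144 genes, each represented by its probe with the highest mean signal. Differences are activin minus PBS on the log2 scale, with the standard error (SE) of a limma fit that holds experiment as a block. A gene is called, and said to have risen or fallen, at an adjusted p below 0.05 (Benjamini-Hochberg over all probes tested). Fold changes of the mean take each unit as a doubling.

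The cell label was checked against marker lists. Of 21 granulosa markers 6 had a named probe, and all 6 lay above background. With activin 2 of them rose and 1 fell (50% called, against 10.6% of all named genes and 20.4% of those above background). Amhr2, the receptor of anti-Müllerian hormone, was the highest of them with PBS, at 12.6 ± 0.419 (SD, n = 4), and read 12.7 ± 0.256 with activin. Foxl2, Fshr, Cyp19a1, Inha and the activin subunit genes had no named probe, and no value is given for them. Oocyte markers (5 of 20 measured) read 7.46 at most in a group mean. Leukocyte markers (10 of 21) read 7.36 at most and endothelial markers (6 of 16) 7.60 at most, and the granulosa marker Gata4 read 7.66 with PBS. By the line used for granulosa markers, 2 oocyte, 1 leukocyte and 5 endothelial markers lay above background. In experiment 1 the mean of the oocyte list was 7.56 with PBS and 7.74 with activin. Other lists held brighter members. Above background lay 5 of 10 theca and stroma markers, 3 of 6 surface epithelial and 1 of 3 smooth muscle markers. The highest of each list with PBS were Dcn at 9.6, Krt8 at 8.9 and Acta2 at 8.0. In these bulk cultures, fewer cells of a type and less RNA per cell cannot be told apart.

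Activin changed 863 of the 8144 named genes (percent called 10.6), of which 440 rose (5.4% of named genes) and 423 fell (5.19%). Among the 4195 named genes above background the share called was 20.4%. Gene lists below with most members above background are best read beside this share. An unadjusted p below 0.05 was met by 1824 of the 8144 named genes, and list counts at that line are best read beside it. Most changes were small: the median size was 0.35 among genes that rose and 0.40 among those that fell, and 584 of the called genes (67.7%) moved by less than 0.5. Rises of more than 1 numbered 35 and falls of more than 1 numbered 29. The 4 activin arrays did not overlap the 4 PBS arrays for 566 of the called genes (65.6%), against 10.3% of all named genes. There were 23 called genes that went from below background with PBS to above it with activin, and 24 that went the other way. Counted over all probes, 2820 of 46093 were called (6.12%), 1423 higher and 1397 lower. This count was 1872 without array PBS 1 and 1873 without array PBS 3. Without the block it was 1342, with 406 named genes called (4.99%), of which 401 are among the 863.

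**Figure D1:**
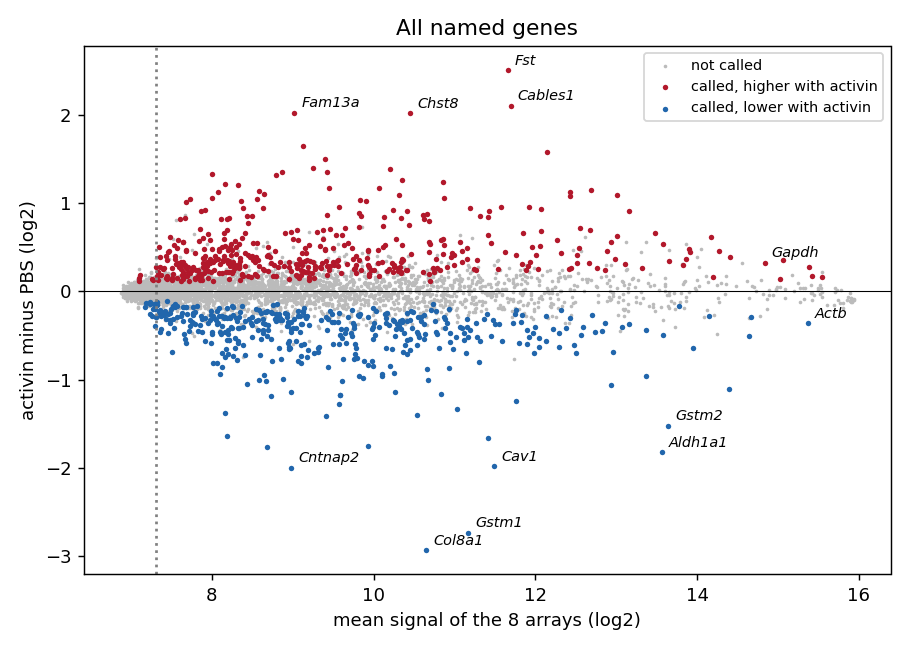
Each point is a named gene, with its mean signal on the 8 arrays on the horizontal axis and the difference activin minus PBS on the vertical axis, both in log2, and the dotted line marks background. Red and blue points are the 440 genes that rose and the 423 that fell, and the largest changes, Fst upward and Col8a1 downward, belong to genes of middle signal.

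The named genes hold only a part of the response. Among probes without a name 1909 were called, 7 of them rose by more than Fst, the largest named rise, and 1 fell by more than Col8a1, the largest named fall. Of the called genes 180 had more than 1 named probe. For 89 of these another probe also lay above background, and it was called in the same direction for 30 of the 89. No gene had probes called in opposite directions.

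The size of the response was similar in the 4 experiments. Over the called genes, the median difference in the called direction was 0.38 in experiment 1, 0.33 in experiment 2, 0.38 in experiment 3 and 0.42 in experiment 4. These medians come from the arrays that made the calls. When genes were instead called from the other 3 experiments and read in the one left out, the median was 0.41 ± 0.058 (SD, n = 4 experiments), and 95.5% ± 2.04 (SD) of the genes kept their direction.

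Fst, which encodes follistatin, rose most among the named genes. Its signal in experiments 1 to 4, the order used throughout, was 9.96, 10.74, 10.46 and 10.44 on the PBS arrays and 13.02, 12.88, 12.66 and 13.11 on the activin arrays. Every activin array lay well above every PBS array, and the difference was 2.52 ± 0.15 (SE), a 5.72-fold higher mean (adjusted p = 1.68e-05). Cables1, whose protein links cyclin-dependent kinases to other kinases, followed at 2.11 ± 0.22. Its signals were 9.68, 11.16, 10.37 and 11.34 on the PBS arrays and 11.90, 13.21, 12.16 and 13.72 on the activin arrays, so each activin array lay above every PBS array although experiments 2 and 4 started higher than 1 and 3. Chst8, a sulfotransferase that adds sulfate to the sugar chains of glycoprotein hormones in the pituitary, gave 9.43, 9.37, 9.56 and 9.39 on the PBS arrays and 11.64, 11.18, 11.73 and 11.30 on the activin arrays, a 4.07-fold higher mean (adjusted p = 9.98e-06).

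Fam13a, a protein with a GTPase-activating domain, rose by 2.03 ± 0.15, at 7.68, 8.29, 8.0 and 8.04 on the PBS arrays and 9.86, 10.15, 10.38 and 9.75 on the activin arrays. Loxl1, an enzyme that cross-links elastin, gave 8.09, 8.42, 8.49 and 8.21 on the PBS arrays and 9.64, 10.19, 10.49 and 9.48 on the activin arrays. Its mean was 3.13-fold higher with activin. Socs2, an inhibitor of growth hormone receptor signalling, gave 11.47, 11.86, 11.01 and 11.09 on the PBS arrays and 13.02, 13.06, 13.08 and 12.60 on the activin arrays, a difference of 1.58 ± 0.13. Tmem45a, a membrane protein, gave 8.71, 8.57, 8.92 and 8.39 on the PBS arrays and 10.45, 9.76, 10.88 and 9.53 on the activin arrays. Its rise was larger in experiments 1 and 3 than in experiments 2 and 4. Sh3kbp1, an endocytic adaptor of receptor tyrosine kinases, gave 8.43, 8.66, 8.69 and 8.44 on the PBS arrays and 10.04, 9.92, 9.71 and 10.14 on the activin arrays. In each of these genes the activin arrays lay wholly above the PBS arrays.

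The remaining members of the 12 largest rises were Gramd1b, Fam171b, Camk2n1 and Emilin2. Gramd1b moves cholesterol from the plasma membrane to the endoplasmic reticulum and rose by 1.39 ± 0.079, at 9.84, 9.65, 9.62 and 8.92 on the PBS arrays and 11.06, 10.84, 11.16 and 10.54 on the activin arrays. Camk2n1, an inhibitor of calcium/calmodulin-dependent kinase II, rose by 1.35 ± 0.10, at 8.84, 8.86, 8.56 and 8.71 on the PBS arrays and 10.33, 9.93, 10.15 and 9.97 on the activin arrays. Emilin2, a glycoprotein of elastic fibres, was at background with PBS and well above it with activin, at 7.33, 7.36, 7.42 and 7.23 on the PBS arrays and 8.91, 8.32, 8.97 and 8.50 on the activin arrays. Fam171b rose by 1.36 ± 0.10, and its groups did not overlap.

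**Figure D2:**
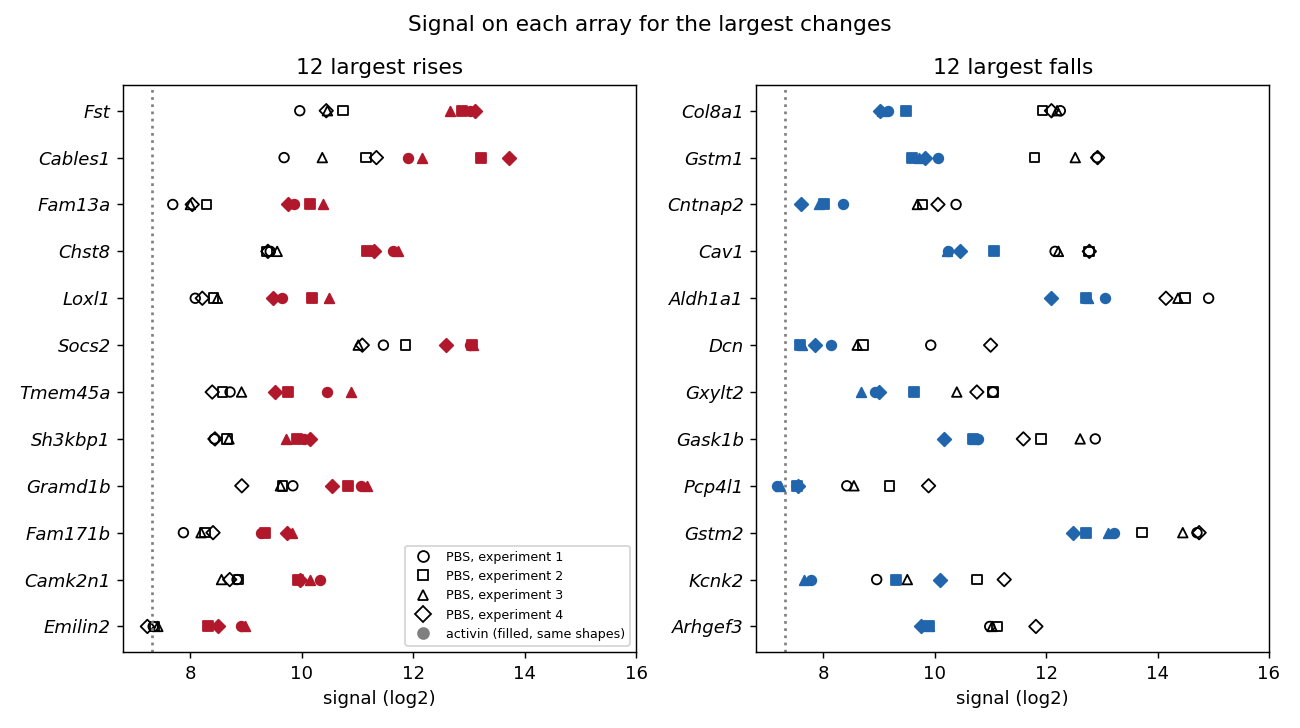
Signal (log2) on each PBS array (open) and activin array (filled) for the 12 named genes that rose most and the 12 that fell most, with 1 shape for each experiment and background as a dotted line. The groups are apart in every row but Kcnk2, where the spread between experiments is wider than the fall within each.

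Col8a1, a chain of the short-chain collagen type VIII, fell most. Its signal was 12.26, 11.93, 12.20 and 12.10 on the PBS arrays and 9.17, 9.48, 9.06 and 9.02 on the activin arrays, with less than 0.5 between the arrays of a group. The difference was -2.94 ± 0.10, a 7.67-fold lower mean (adjusted p = 7.65e-07). Gstm1, a glutathione S-transferase of the mu class, gave 12.91, 11.79, 12.52 and 12.92 on the PBS arrays and 10.06, 9.59, 9.72 and 9.83 on the activin arrays and was 6.67-fold lower, and Gstm2 of the same class gave 14.71, 13.73, 14.45 and 14.75 on the PBS arrays and 13.21, 12.71, 13.11 and 12.49 on the activin arrays and was 2.88-fold lower. The mu class genes are close copies of each other, and how far a probe of one reads the other is uncertain here. Aldh1a1, which oxidises retinaldehyde to retinoic acid, had one of the highest signals among the called genes, at 14.92, 14.49, 14.37 and 14.15 on the PBS arrays and 13.06, 12.71, 12.75 and 12.08 on the activin arrays. It fell by a similar amount in each experiment.

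Cntnap2, a neurexin-like adhesion protein, gave 10.38, 9.78, 9.69 and 10.06 on the PBS arrays and 8.36, 8.01, 7.92 and 7.60 on the activin arrays, a 4.01-fold lower mean. Cav1, the main protein of caveolae, gave 12.16, 12.77, 12.22 and 12.78 on the PBS arrays and 10.23, 11.07, 10.21 and 10.45 on the activin arrays, a difference of -1.99 ± 0.15. The groups of both genes were apart. Gxylt2, which adds xylose to the glucose on epidermal growth factor-like repeats of Notch, gave 11.05, 11.04, 10.40 and 10.76 on the PBS arrays and 8.93, 9.62, 8.68 and 9.0 on the activin arrays. Gask1b, a Golgi-associated protein, gave 12.88, 11.91, 12.61 and 11.59 on the PBS arrays and 10.78, 10.68, 10.71 and 10.17 on the activin arrays. Pcp4l1, a calmodulin-binding-like protein, reached background with activin, at 8.42, 9.19, 8.55 and 9.89 on the PBS arrays and 7.18, 7.52, 7.23 and 7.55 on the activin arrays. Arhgef3, a guanine nucleotide exchange factor, gave 10.99, 11.12, 11.03 and 11.82 on the PBS arrays and 9.78, 9.90, 9.90 and 9.75 on the activin arrays, and its PBS array of experiment 4 stood above the other three. Kcnk2, a two-pore potassium channel, gave 8.96, 10.76, 9.51 and 11.25 on the PBS arrays and 7.77, 9.31, 7.65 and 10.09 on the activin arrays. Its groups overlapped, since experiments 2 and 4 began higher, while the differences within experiments were -1.19, -1.45, -1.85 and -1.16. Without the block its adjusted p was 0.464.

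Dcn, the matrix proteoglycan decorin, varied widely between experiments, at 9.93, 8.72, 8.61 and 11 on the PBS arrays and 8.14, 7.59, 7.61 and 7.86 on the activin arrays. The differences in experiments 1 to 4 were -1.79, -1.13, -1.0 and -3.15, and -1.77 ± 0.30 over all 4 (adjusted p = 0.00667). Its adjusted p was 0.139 without the block and 0.0596 without experiment 1. The other named probe of Dcn, with a mean of 7.56 over the 12 arrays, was not called. Dcn and Col3a1, which fell by 0.73 ± 0.11, are also markers of theca and stroma. Of the 20 markers on that list 10 were measured, 2 fell and 1 rose (30% called, against 10.6% of all named genes). The mean signal of the 10 was 7.47 to 7.74 on the PBS arrays and 7.34 to 7.39 on the activin arrays. Ptch1, Insl3 and Col1a2 lay below background in both groups, and Col1a1 read 7.48 ± 0.155 and 7.46 ± 0.0507 (SD, n = 4). The part of such cells in these falls was not tested.

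The promoters of Col8a1 and Fam13a are shown because these genes had large changes in opposite directions and share the 6 letters CAGACA, a form of the element that Smad proteins bind. The stretches are the 250 bases before the annotated start, from RefSeq on build GRCm38.p6, read 5′ to 3′ along the gene, with the element on either strand in capitals. The Col8a1 stretch is chr16:57754738-57754987 on the minus strand and the Fam13a stretch chr6:59024503-59024752 on the minus strand.
Col8a1: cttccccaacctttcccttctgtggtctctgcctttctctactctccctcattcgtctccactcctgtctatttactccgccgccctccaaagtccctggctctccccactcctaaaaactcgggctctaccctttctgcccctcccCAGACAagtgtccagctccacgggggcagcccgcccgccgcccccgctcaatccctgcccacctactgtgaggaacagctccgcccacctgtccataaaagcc
Fam13a: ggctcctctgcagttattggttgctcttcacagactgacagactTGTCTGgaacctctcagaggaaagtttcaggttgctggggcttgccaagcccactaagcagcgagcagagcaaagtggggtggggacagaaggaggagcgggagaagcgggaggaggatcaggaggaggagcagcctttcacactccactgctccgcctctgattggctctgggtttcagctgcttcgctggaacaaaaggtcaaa
Of the 24 largest changes 16 genes had a promoter in the reference table, and 6 of these (37.5%) held CAGACA on either strand: Fam13a, Sh3kbp1, Col8a1, Gstm1, Gstm2 and Arhgef3. Over all 32851 promoters of this length the share was 17.1%. A gene was counted if any of its listed promoters held the letters, while this share counts single promoters, so the units differ. The palindrome GTCTAGAC, a stronger Smad element in binding assays, was in 0.167% of all promoters and in 0 of the 16. A match is a description of letters only.

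Among ligands and secreted antagonists of the family, 22 of them measured, 4 rose and 1 fell (22.7% called, against 10.6% of all named genes). Besides Fst, Gdf15, a stress-induced ligand, rose from background by 0.58 ± 0.069, at 7.35, 7.23, 7.26 and 7.31 on the PBS arrays and 8.09, 7.63, 8.0 and 7.78 on the activin arrays. Gdf15 showed no overlap between the PBS and activin arrays. Gdf1 rose by 0.35 ± 0.058 and Bmp6, a bone morphogenetic protein that oocytes and granulosa cells make, by 0.46 ± 0.10. Ltbp1, which holds latent transforming growth factor beta in the matrix, fell in each experiment, with differences of -0.84, -0.80, -1.05 and -0.75 and -0.86 ± 0.059 over all 4 (adjusted p = 3.07e-05). Its level differed between experiments, and the adjusted p without the block was 0.158. The call for Bmp6 ended without any 1 of the arrays PBS 1, activin 1 and PBS 3 (adjusted p up to 0.0957), and that for Gdf1 without experiment 3 (adjusted p = 0.0569).

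Of 12 receptors and Smad proteins 1 rose and 1 fell (16.7% called, against 10.6%). Above background lay 10 of the 12, and 20.4% of all named genes above background were called. Bmpr1b rose by 0.42 ± 0.095 and Smad4, their common partner, fell by 0.21 ± 0.054. The type I receptor gene Tgfbr1 read 13.03 ± 0.37 with PBS and 12.67 ± 0.189 with activin (SD, n = 4; adjusted p = 0.0666). The activin type II receptor gene Acvr2a and the type I receptor gene Acvr1b read 7.29 to 7.33 in the group means, close to background. Both calls in this list were fragile: that for Bmpr1b ended without any 1 of the arrays PBS 1, activin 1, activin 2, PBS 3, PBS 4 and activin 4 (adjusted p up to 0.116), and that for Smad4 without any 1 of the arrays PBS 1, activin 1, activin with follistatin 1, PBS 2, PBS 3, activin 3, PBS 4, activin 4 and activin with follistatin 4 (adjusted p up to 0.163). Neither was called without the block, at adjusted p of 0.654 and 0.727. Of 10 genes that often respond to Smad signalling in other cells 1 rose and 1 fell (20% called). The rise was that of Cdkn1a, which encodes the cyclin-dependent kinase inhibitor p21, at 10.54, 11.02, 10.95 and 10.36 on the PBS arrays and 11.61, 11.71, 12 and 11.32 on the activin arrays and a difference of 0.94 ± 0.10. Cdkn1a showed no overlap between the PBS and activin arrays. The fall was that of Ccn1, a matrix-associated signalling protein, with a difference of -0.76 ± 0.093, with an adjusted p of 0.131 without the block.

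Cholesterol and steroid genes moved in more than one direction. On the list of cholesterol synthesis and uptake, 6 of 24 measured genes rose and 2 fell (33.3% called, against 10.6% of all named genes), with a median difference of 0.11 against 0.0018 over all named genes. Above background lay 19 of the 24, and 20.4% of all named genes above background were called. Within experiments 1 to 4 the list's median was 0.12, 0.057, 0.35 and 0.067, highest in experiment 3. Without the block 1 rose and 0 fell. Soat1, which esterifies cholesterol for storage, rose from 7.72 to 8.93, at 7.76, 7.63, 7.75 and 7.74 on the PBS arrays and 9.07, 8.46, 9.42 and 8.77 on the activin arrays. Scarb1, the receptor that takes up cholesterol from high-density lipoprotein, gave 12.31, 11.91, 12.56 and 11.70 on the PBS arrays and 13.95, 12.85, 14.20 and 12.07 on the activin arrays. Soat1 showed no overlap between the PBS and activin arrays, whereas Scarb1 did. Its rise was 1.64, 0.94, 1.64 and 0.37 in experiments 1 to 4. Fdps, an enzyme of the mevalonate pathway, rose by 0.54 ± 0.10. Apoe, the apolipoprotein that carries cholesterol, fell by 0.53 ± 0.10. The call for Scarb1 ended without any 1 of the arrays PBS 1, activin 1 and PBS 3 (adjusted p up to 0.0819), and those for Fdps and Apoe without experiment 3 (adjusted p 0.0564 and 0.0685). Without the block the adjusted p of Scarb1 was 0.205, of Fdps 0.801 and of Apoe 0.768.

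In steroid synthesis and modification, 3 of 15 measured genes rose and 1 fell (26.7% called, against 10.6% of all named genes). Hsd11b2, which inactivates glucocorticoids, rose in each experiment, at 7.93, 8.24, 8.30 and 7.90 on the PBS arrays and 9.22, 9.05, 9.33 and 9.21 on the activin arrays, a 2.16-fold higher mean (adjusted p = 3.24e-05). Cyp1b1, a cytochrome P450 that hydroxylates estradiol, rose by 0.92 ± 0.16 from a high level, at 12.44, 13.28, 12.67 and 12.41 on the PBS arrays and 13.24, 13.95, 14 and 13.28 on the activin arrays. The call for Cyp1b1 ended without experiment 3 (adjusted p = 0.0836). Cyp11a1, which cleaves the side chain of cholesterol in the first step of steroid synthesis, gave 13.65, 12.48, 14.42 and 10.65 on the PBS arrays and 13.26, 12.44, 14.41 and 10.94 on the activin arrays. Its PBS level ran from 10.65 to 14.42 between experiments, and the difference with activin was -0.04 ± 0.15 (adjusted p = 0.965). Star, which moves cholesterol into mitochondria, read 7.67, 7.55, 7.69 and 7.47 on the PBS arrays and 7.80, 7.62, 7.89 and 7.52 on the activin arrays (adjusted p = 0.244). Lhcgr, the receptor of luteinizing hormone, was below background in both group means, at 7.19, 7.17, 7.24 and 7.12 on the PBS arrays and 7.28, 7.16, 7.29 and 7.14 on the activin arrays. Hsd11b2 showed no overlap between the PBS and activin arrays, whereas Cyp1b1, Cyp11a1, Star and Lhcgr did.

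Of 23 glycolytic and lactate genes 4 rose and 3 fell (30.4% called, against 10.6% of all named genes), with 0 rises and 1 fall without the block. Above background lay 19 of the 23, and 20.4% of all named genes above background were called. The list's median difference was 0.15, 0.075, 0.43 and 0.058 in experiments 1 to 4. Pfkl, the liver form of phosphofructokinase, rose by 0.91 ± 0.19, while Pfkm, the muscle form, fell by 0.54 ± 0.055. Pfkl gave 10.13, 9.69, 10.14 and 9.89 on the PBS arrays and 11.29, 10.30, 11.61 and 10.28 on the activin arrays, and Pfkm gave 10.38, 9.90, 10.39 and 10.35 on the PBS arrays and 9.85, 9.57, 9.78 and 9.66 on the activin arrays. Pfkl and Pfkm showed no overlap between the PBS and activin arrays. The rises of Aldoa, which splits fructose bisphosphate, and Gapdh were 0.49, 0.31, 0.92 and 0.27 and 0.29, 0.19, 0.48 and 0.35 in experiments 1 to 4. The call for Pfkl ended without any 1 of the arrays PBS 1, activin 1 and PBS 3 (adjusted p up to 0.0817), that for Aldoa without any 1 of the arrays PBS 1, activin 1 and PBS 3 (adjusted p up to 0.0812) and that for Gapdh without any 1 of the arrays PBS 1 and PBS 3 (adjusted p up to 0.058). Without the block the adjusted p was 0.111 for Pfkl, 0.295 for Aldoa and 0.409 for Gapdh. The other named probe of Gapdh, with a mean of 14.1 over the 12 arrays, was not called.

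Among 23 genes of fatty acid metabolism 3 rose and 3 fell (26.1% called, against 10.6%). Lpl, lipoprotein lipase, which releases fatty acids from circulating fat, fell by 0.96 ± 0.15, at 14.10, 13.74, 14.25 and 13.34 on the PBS arrays and 13.24, 12.85, 13.56 and 11.92 on the activin arrays. Lpl showed overlap between the PBS and activin arrays. Fabp3, a fatty acid carrier, fell by 0.84 ± 0.09 and Hadhb, a subunit of the mitochondrial trifunctional protein of beta-oxidation, by 0.50 ± 0.058. Lpin2, a phosphatidate phosphatase, rose by 0.50 ± 0.057. Without the block Lpl had an adjusted p of 0.158 and Fabp3 of 0.0859.

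Genes of protein folding in the endoplasmic reticulum rose and none fell: 8 of 23 measured (34.8%, against 5.4% of all named genes that rose). Above background lay 18 of the 23, and 20.4% of all named genes above background were called in either direction. Hspa5, the chaperone BiP, rose most, at 10.33, 10.43, 10.31 and 10.27 on the PBS arrays and 11.48, 11.28, 11.65 and 11.21 on the activin arrays, a 2.1-fold higher mean (adjusted p = 5.59e-05). Sel1l, part of the complex that returns misfolded proteins for degradation, rose by 0.84 ± 0.081, and Derl2 of the same route by 0.36 ± 0.04. Fkbp2, a prolyl isomerase, rose by 0.50 ± 0.058, and Sec61g, a subunit of the translocon, by 0.47 ± 0.069, at 12.73, 12.76, 12.66 and 12.45 on the PBS arrays and 13.26, 13.05, 13.05 and 13.11 on the activin arrays. Hspa5 and Sec61g showed no overlap between the PBS and activin arrays. Ssr4 rose by 0.24 ± 0.051. The other members that rose were Edem2, by 0.41 ± 0.086, and the transcription factor Xbp1, by 0.32 ± 0.077, named after their values were seen. The median difference of the list was 0.13. Without the block 4 members were called, Hspa5, Sel1l, Derl2 and Sec61g. The call for Ssr4 ended without any 1 of the arrays activin 1, activin 2, PBS 3, activin 3 and PBS 4 (adjusted p up to 0.0851), that for Edem2 without any 1 of the arrays activin 1, PBS 2, PBS 3 and activin 3 (adjusted p up to 0.0887) and that for Xbp1 without any 1 of 7 arrays, all those of PBS and activin in experiments 1 to 3 and activin with follistatin 3 (adjusted p up to 0.154). Without the block the adjusted p was 0.0846 for Fkbp2, 0.0682 for Ssr4, 0.221 for Edem2 and 0.244 for Xbp1.

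The promoter of Hspa5 is shown because this gene rose most of the folding list and its promoter holds the endoplasmic reticulum stress element, CCAAT and CCACG with 9 bases between them, a site bound by NF-Y and ATF6. The 250 bases before its start, chr2:34771840-34772089 on the plus strand of GRCm38.p6, hold the element once, in capitals. Stretches around the element of Canx, at chr11:50325785-50325833 on the minus strand, and Ero1b, at chr13:12565667-12565715 on the plus strand, are set beside it, the latter with the element on the opposite strand.
Hspa5: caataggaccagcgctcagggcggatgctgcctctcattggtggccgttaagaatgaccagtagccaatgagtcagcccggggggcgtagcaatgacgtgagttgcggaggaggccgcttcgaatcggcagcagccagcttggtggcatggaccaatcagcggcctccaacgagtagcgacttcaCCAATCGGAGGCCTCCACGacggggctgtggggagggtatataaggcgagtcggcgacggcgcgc
Canx: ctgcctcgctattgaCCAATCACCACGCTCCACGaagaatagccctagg
Ero1b: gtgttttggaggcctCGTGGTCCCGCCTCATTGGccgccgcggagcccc
Of the 22 genes of this list with a promoter in the RefSeq table these 3 held the element on either strand, against 37 of all 32851 promoters (0.113%). The first count is of genes with the element in any listed promoter, the second of single promoters, so the units differ. Canx read below background in both groups. Ero1b read 7.51 ± 0.0399 with PBS and 7.68 ± 0.139 with activin (SD, n = 4; adjusted p = 0.0545). No other member with a promoter in the table held these letters in this window.

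Of 43 measured collagens and other matrix proteins 7 fell and 1 rose (18.6% called), against 5.19% and 5.4% of all named genes. Besides Col8a1 and Col3a1, the basement membrane collagens Col4a5 and Col4a6 fell, Col4a5 from 10.1 to 9.37 and Col4a6 from 7.95 to 7.59. Hspg2, the basement membrane proteoglycan perlecan, fell by 0.80 ± 0.13, at 10.10, 10.66, 10.04 and 10.73 on the PBS arrays and 9.58, 9.74, 9.64 and 9.38 on the activin arrays. Spp1, the secreted phosphoprotein osteopontin, was the member that rose, at 12.67, 10.86, 12 and 10.85 on the PBS arrays and 13.53, 12, 13.13 and 11.48 on the activin arrays. Hspg2 showed no overlap between the PBS and activin arrays, whereas Spp1 did. Its adjusted p was 0.00181 with the block and 0.643 without it.

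Elastic fibre genes were split, with 3 of 10 measured higher and 2 lower (50% called, against 10.6% of all named genes and 20.4% of those above background, where all 10 lie). Loxl1, Emilin2 and Fbln1 rose. Fbln1, a fibulin, gave 9.95, 10.18, 10.57 and 9.99 on the PBS arrays and 10.81, 10.98, 11.55 and 10.81 on the activin arrays, a difference of 0.87 ± 0.07. The other named probe of Fbln1, with a mean of 8.45 over the 12 arrays, was not called. Ltbp1 and Fbln2 fell, Fbln2 with a difference of -1.02 ± 0.24, and the call for Fbln2 ended without any 1 of the arrays PBS 1, activin with follistatin 1, PBS 2, activin 2, activin with follistatin 2, PBS 3 and PBS 4 (adjusted p up to 0.143), with an adjusted p of 0.211 without the block. Among 24 matrix proteases and inhibitors 1 rose and 3 fell (16.7% called). Timp2, an inhibitor of matrix metalloproteinases, fell most, at 11.73, 11.72, 11.72 and 11.64 on the PBS arrays and 10.38, 10.40, 10.72 and 9.97 on the activin arrays, a 2.53-fold lower mean. Fbln1 and Timp2 showed no overlap between the PBS and activin arrays. Its PBS arrays lay close together. Cst3, the cysteine protease inhibitor cystatin C, fell by 0.65 ± 0.11 from 14.3, with an adjusted p of 0.158 without the block, and Serpina3n, a serine protease inhibitor, rose by 0.41 ± 0.068.

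Junction genes gave 1 rise and 3 falls among 33 measured, 12.1% called, close to the 10.6% of all named genes. Jam2, a junctional adhesion molecule, rose by 1.27 ± 0.12, at 9.96, 9.83, 9.56 and 9.49 on the PBS arrays and 10.92, 11.28, 11 and 10.72 on the activin arrays. F11r, its relative JAM-A, fell by 0.79 ± 0.087, at 9.78, 9.10, 9.70 and 9.25 on the PBS arrays and 8.66, 8.59, 8.81 and 8.62 on the activin arrays. Jup, plakoglobin, fell by 0.53 ± 0.043. Of 19 integrin and focal adhesion genes 3 fell and 0 rose (15.8% called, 7 at an unadjusted p below 0.05, and 3 falls and 0 rises without the block). These were Cav1, the collagen receptor subunit Itga11, at 9.38, 9.23, 9.26 and 9.65 on the PBS arrays and 8.52, 8.45, 8.42 and 8.16 on the activin arrays, and zyxin (Zyx), which fell by 0.60 ± 0.10. Jam2, F11r and Itga11 showed no overlap between the PBS and activin arrays.

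Actin, tubulin and their binding proteins gave 1 rise and 6 falls among 37 measured (18.9% called, against 10.6%). The regulatory light chains of non-muscle myosin fell, Myl12a by 0.65 ± 0.088 and Myl12b by 0.43 ± 0.072. The paralogs are nearly identical, and their probes may share RNA. Without experiment 1 or experiment 3 Myl12b had an adjusted p up to 0.0656. Stmn1, a protein that takes microtubules apart, fell by 0.64 ± 0.10, and Tuba8, an alpha-tubulin, rose by 0.59 ± 0.069. The call for Stmn1 ended without experiment 1 (adjusted p = 0.0514) and that for Tuba8 without the block (adjusted p = 0.11). Actb, often used as a reference gene, fell by 0.36 ± 0.089 (adjusted p = 0.0425), at 15.50, 15.35, 15.67 and 15.68 on the PBS arrays and 15.30, 15.21, 15.25 and 14.99 on the activin arrays.  The groups did not overlap, but the call ended without any 1 of 9 of the 12 arrays, all but PBS 2 and the activin with follistatin arrays 2 and 3 (adjusted p up to 0.169). After quantile normalization its adjusted p was 0.0653. The other named probe of Actb, with a mean of 14.6 over the 12 arrays, was not called.

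Axon guidance and neuronal adhesion genes moved both ways, 5 up and 6 down of 45 measured (24.4% called, against 10.6%). Pcdh9, a protocadherin, fell from above to below background with little spread, at 7.91, 7.83, 7.80 and 7.84 on the PBS arrays and 7.21, 7.18, 7.15 and 7.11 on the activin arrays (adjusted p = 4.2e-06). Slit2, a secreted guidance ligand, fell by 1.38 ± 0.095, at 8.75, 9.17, 8.80 and 8.68 on the PBS arrays and 7.56, 7.63, 7.44 and 7.28 on the activin arrays, while Robo1, a receptor of Slit ligands, rose by 0.84 ± 0.14. Pcdh9 and Slit2 showed no overlap between the PBS and activin arrays. Nrp1, the semaphorin and vascular endothelial growth factor co-receptor, fell by 1.0 ± 0.13. The call for Robo1 ended without experiment 1 or experiment 3 (adjusted p up to 0.058).

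In insulin-like growth factor and insulin signalling 2 of 19 measured genes rose and 3 fell (26.3% called, against 10.6%). Igf1, the growth factor, rose from 10.2 to 11.5, at 10.16, 10.29, 10.06 and 10.43 on the PBS arrays and 11.75, 11.40, 11.07 and 11.70 on the activin arrays, a 2.37-fold higher mean. Igf1 showed no overlap between the PBS and activin arrays. Foxo1, a transcription factor that insulin signalling keeps out of the nucleus, rose by 0.93, 0.61, 0.69 and 0.81 in experiments 1 to 4 (adjusted p = 4.87e-05). Its PBS level ran from 9.31 to 10.82, and without the block its adjusted p was 0.469. Igfbp5, a binding protein of these growth factors, fell by 1.10 ± 0.18 from 14.9, one of the highest levels among called genes. The other named probe of Igfbp5, with a mean of 14.2 over the 12 arrays, was not called. Pik3r3, a regulatory subunit of phosphoinositide 3-kinase, fell by 0.58 ± 0.069. The call for Igfbp5 ended without experiment 2 (adjusted p = 0.0508) and, at an adjusted p of 0.0896, without the block.

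Of 25 cytokine receptors and their inhibitors 2 rose and 1 fell (12% called, close to the 10.6% of all named genes). Besides Socs2, Socs1 rose by 0.56 ± 0.11, from 7.36 to 7.92. Prlr, the prolactin receptor, fell, with differences of -1.19, -0.64, -1.26 and -0.45 in experiments 1 to 4 and -0.88 ± 0.14 over all 4 (adjusted p = 0.00353). The call for Socs1 ended without any 1 of the arrays PBS 1, activin 1 and PBS 3 (adjusted p up to 0.0667). The adjusted p of Prlr was 0.306 without the block.

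**Figure D3:**
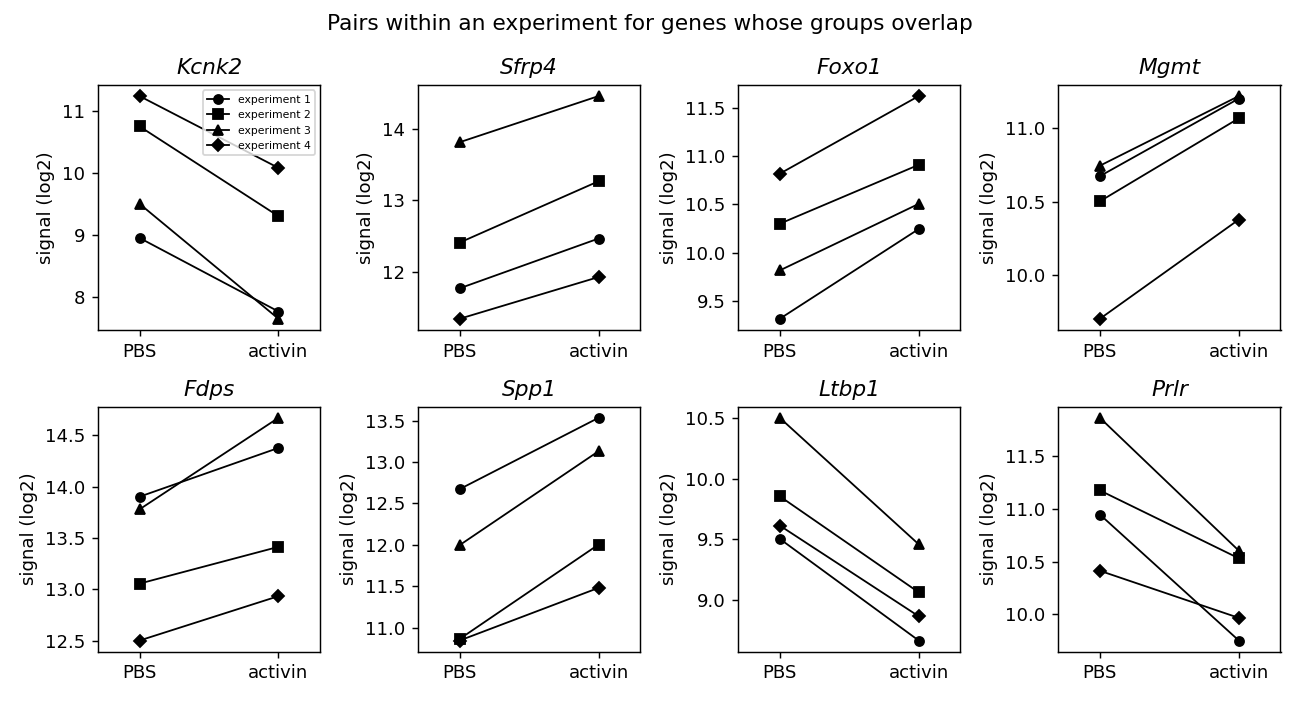
Signal (log2) of the PBS and activin array of each experiment, joined by a line, for 8 called genes. The PBS and activin arrays overlap in every panel but that of Ltbp1. The lines of a panel run the same way from different starting levels, which is the difference the block holds constant: Foxo1 rose by 0.93, 0.61, 0.69 and 0.81 while its PBS level ran from 9.31 to 10.82.

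Of 13 genes of the G1 phase 4 rose and 1 fell (38.5% called, against 10.6%): with Cables1 and Cdkn1a these were Ccng1, a cyclin induced by p53, at 8.95, 9.33, 9.07 and 8.97 on the PBS arrays and 9.59, 9.78, 9.70 and 9.61 on the activin arrays, and the activator E2f2, which rose by 0.33 ± 0.039. E2f6, a repressor of E2f targets, was the gene that fell, by 0.14 ± 0.03. The other named probes of E2f6, with a mean of 7.81 at most over the 12 arrays, were not called. Of 18 DNA replication genes 4 rose and 0 fell (22.2% called, 9 at an unadjusted p below 0.05), with a median difference of 0.19 and medians of 0.19, 0.10, 0.071 and 0.37 in experiments 1 to 4. Above background lay 15 of the 18, and 20.4% of all named genes above background were called. Of all 8144 named genes 1824 had an unadjusted p below 0.05. Cdc6, which loads the replicative helicase, rose by 0.39 ± 0.071, at 8.39, 8.35, 8.22 and 8.16 on the PBS arrays and 8.76, 8.51, 8.55 and 8.85 on the activin arrays. Ccng1 and Cdc6 showed no overlap between the PBS and activin arrays. Of 21 mitotic genes 2 rose and 0 fell (9.52% called, 11 at an unadjusted p below 0.05), with a median of 0.14 and 0.19, 0.17, 0.017 and 0.30 in experiments 1 to 4. Ccnb1, cyclin B1, rose by 0.56 ± 0.12. Without the block 1 gene of each of the latter lists was called. The call for Cdc6 ended without experiment 1 or experiment 3 (adjusted p up to 0.0677), that for Ccnb1 without any 1 of the arrays PBS 1, activin 1, PBS 3 and PBS 4 (adjusted p up to 0.113) and that for E2f6 without any 1 of the arrays activin 1, PBS 2, activin 2, PBS 3 and activin 3 (adjusted p up to 0.102). Without the block E2f2 and E2f6 had adjusted p of 0.167 and 0.622.

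Of 23 genes of ovulation and luteinization 4 rose and 4 fell (34.8% called, against 10.6% of all named genes and 20.4% of those above background), with 3 rises and 0 falls without the block. Rgs2, which shortens signals of G protein-coupled receptors, rose from close to background, at 7.26, 7.61, 7.35 and 7.58 on the PBS arrays and 8.36, 8.40, 8.39 and 8.37 on the activin arrays (adjusted p = 4.28e-05). The transcription factor Cebpb, needed for luteinization in mice, rose by 0.91 ± 0.13, at 11.16, 10.95, 10.98 and 10.80 on the PBS arrays and 12.33, 11.56, 12.20 and 11.45 on the activin arrays, and its relative Cebpa by 0.60 ± 0.084. Rgs2 and Cebpb showed no overlap between the PBS and activin arrays. Sfrp4, a secreted Wnt antagonist, rose by 0.70, 0.86, 0.65 and 0.58 in experiments 1 to 4 from PBS levels between 11.34 and 13.82. Runx1 fell by 0.37 ± 0.059. Without the block Sfrp4 had an adjusted p of 0.831 and Runx1 of 0.195.

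Transcription factors of granulosa and gonad development gave 1 rise (Foxo1) and 3 falls among 22 measured (18.2% called, against 10.6%). Gata3 fell by 0.94 ± 0.063, at 9.01, 8.43, 8.53 and 8.30 on the PBS arrays and 8.09, 7.49, 7.70 and 7.23 on the activin arrays, and Sox4 by 0.80 ± 0.12. Wt1, a zinc finger factor of gonad development, fell by 0.38 ± 0.08. The call for Wt1 ended without any 1 of the arrays PBS 1, activin 1, PBS 2 and PBS 3 (adjusted p up to 0.0857). Without the block the adjusted p of Sox4 was 0.234 and of Wt1 0.578. Of 10 immediate early genes 3 fell and 0 rose (30% called, 3 at an unadjusted p below 0.05, and 1 fall without the block). Klf6, a zinc finger factor, fell most, at 11.62, 11.43, 11.35 and 11.57 on the PBS arrays and 11.19, 10.84, 10.79 and 10.36 on the activin arrays. Gata3 and Klf6 showed no overlap between the PBS and activin arrays.

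G protein and cyclic AMP genes gave 4 rises and 3 falls among 44 measured (15.9% called, against 10.6%). Prkar2a, a regulatory subunit of protein kinase A, rose by 0.46 ± 0.054, and Prkar2b, another, by 1.03 ± 0.22, at 8.70, 9.45, 9.30 and 9.79 on the PBS arrays and 10.37, 10.12, 10.69 and 10.19 on the activin arrays. Prkar2b showed no overlap between the PBS and activin arrays. Gnai1, an inhibitory G protein subunit, fell to below background, by 0.43 ± 0.063, and Pde1b, a phosphodiesterase, fell by 0.37 ± 0.054. The call for Prkar2b ended without any 1 of the arrays PBS 1, activin 1, PBS 3, activin 3 and PBS 4 (adjusted p up to 0.109). Without the block the adjusted p was 0.095 for Prkar2b, 0.06 for Gnai1 and 0.117 for Pde1b.

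Dhh, the hedgehog ligand that granulosa cells send to the theca, rose by 0.59 ± 0.093, at 8.96, 8.56, 8.78 and 8.50 on the PBS arrays and 9.23, 9.24, 9.30 and 9.40 on the activin arrays. Dhh showed no overlap between the PBS and activin arrays. Lrp5, a Wnt co-receptor, rose by 0.42 ± 0.052, and Wnt10b fell by 0.72 ± 0.11, with an adjusted p of 0.163 without the block. Of 28 growth factors and receptor tyrosine kinases 1 rose and 3 fell (14.3% called, against 10.6%). Erbb2 rose by 0.36 ± 0.035, Fgf18 fell by 0.28 ± 0.039 and Pdgfc by 0.35 ± 0.054, the last with an adjusted p of 0.128 without the block. Bok, a death-promoting relative of the B-cell lymphoma proteins, rose by 0.66 ± 0.08, 1 of 3 rises among 21 apoptosis genes, where 1 gene fell (19% called).

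Of 10 retinoid genes 2 fell and 0 rose (20% called, against 10.6%, and 3 at an unadjusted p below 0.05). With Aldh1a1, Rdh10 fell, the enzyme that turns retinol into retinaldehyde. The difference was -0.48 ± 0.074, at 8.27, 8.73, 8.51 and 8.24 on the PBS arrays and 7.86, 8.17, 7.83 and 7.96 on the activin arrays, with an adjusted p of 0.0813 without the block. Rdh10 showed no overlap between the PBS and activin arrays. Among 22 glutathione and antioxidant genes 5 fell and 3 rose (36.4% called). With Gstm1 and Gstm2, Mgst3, a microsomal glutathione transferase, fell by 0.61 ± 0.072. Gclm, the modifier subunit of the enzyme that makes glutathione's precursor, rose by 0.52 ± 0.09. The call for Gclm ended without experiment 2 (adjusted p = 0.0551) and without the block (adjusted p = 0.0747).

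Among 21 sphingolipid and glycosphingolipid enzymes 2 rose and 4 fell (28.6% called, against 10.6%). Above background lay 16 of the 21, and 20.4% of all named genes above background were called. The sialyltransferases St3gal4 and St3gal6 went opposite ways. St3gal4 gave 11.29, 11.60, 11.45 and 11.44 on the PBS arrays and 12.29, 12.35, 12.55 and 12.43 on the activin arrays, a 1.94-fold higher mean, and St3gal6 gave 9.69, 8.57, 8.83 and 9.37 on the PBS arrays and 8.53, 7.91, 7.97 and 8.27 on the activin arrays, a 1.92-fold lower one. Cers5, a ceramide synthase, rose by 0.84 ± 0.078. Sphk1, which makes sphingosine 1-phosphate, fell by 1.19 ± 0.12, at 9.05, 9.26, 9.35 and 9.64 on the PBS arrays and 7.75, 8.45, 8.42 and 7.93 on the activin arrays. St3gal4, St3gal6 and Sphk1 showed no overlap between the PBS and activin arrays. St3gal6 had an adjusted p of 0.136 without the block. Of 28 glycan-modifying enzymes 2 rose and 1 fell (10.7% called, near the 10.6% of all named genes), namely Chst8, Mgat4b, which branches N-glycans and rose by 0.64 ± 0.076, and Gxylt2.

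Of 117 solute carriers 11 rose and 2 fell, or 11.1% called against 10.6% of all named genes. Without the block 6 rose and 1 fell. Slc4a8, a sodium-driven bicarbonate exchanger, rose by 0.86 ± 0.10 and Slc8a1, the sodium-calcium exchanger, by 0.70 ± 0.084. Slc18a2, the vesicular monoamine transporter and a granulosa marker here, rose less in experiment 2 than in the others, at 7.72, 7.25, 7.48 and 7.41 on the PBS arrays and 8.82, 7.65, 8.72 and 8.92 on the activin arrays. Slc18a2 showed overlap between the PBS and activin arrays. Its call ended without any 1 of the arrays PBS 1 and PBS 4 (adjusted p up to 0.0568) and its adjusted p without the block was 0.0841.

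Of 72 ribosomal protein genes 4 rose and 0 fell (5.56% called, below the 10.6% of all named genes, 11 at an unadjusted p below 0.05, and 0 without the block), with a median difference of 0.041. Of all 8144 named genes 1824 had an unadjusted p below 0.05. Respiratory chain genes gave 3 rises and 1 fall among 46 (8.70% called, 12 at an unadjusted p below 0.05, and 0 without the block), with a median of 0.020. The 13 genes of mitochondrial DNA were not called (0 at an unadjusted p below 0.05). The 12 of them above background had differences between -0.20 and 0.094. Proteasome subunits gave 5 rises and 1 fall among 24, with a median of 0.092. The share called was 25%, near the 20.4% of named genes above background, where all 24 lie. Psmd2 rose by 0.36 ± 0.055 and Psmd8 fell by 0.46 ± 0.077, the latter with an adjusted p of 0.212 without the block. Of 33 mitochondrial ribosomal proteins 3 rose and 0 fell (9.09% called, 8 at an unadjusted p below 0.05, and 3 rises without the block), led by Mrps21 with 0.58 ± 0.064.

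Among the 10 called genes with the highest signals, Atpif1, the inhibitor of mitochondrial ATP synthase, fell by 0.50 ± 0.083, at 14.94, 14.77, 14.78 and 15.08 on the PBS arrays and 14.34, 14.56, 14.16 and 14.50 on the activin arrays. Atpif1 showed no overlap between the PBS and activin arrays. Hmgn1, a nucleosome-binding protein, fell by 0.29 ± 0.065, and Morf4l2, a chromatin protein, rose by 0.39 ± 0.058. Without experiment 1 Atpif1 had an adjusted p of 0.0631. Smaller rises in this set were those of Psma2, a proteasome subunit (0.35 ± 0.078), and of the ribosomal protein genes Rps27 (0.14 ± 0.034), Rpl13 (0.17 ± 0.043) and Rpl10 (0.27 ± 0.062). Each of these 4 calls ended without any 1 of 5 to 10 of the 12 arrays, PBS 1 and PBS 4 always among them (adjusted p up to 0.151), and without the block (adjusted p 0.0817 to 0.495). The call for Hmgn1 ended without any 1 of the arrays PBS 1, PBS 2, activin 2, PBS 3, activin 3 and activin 4 (adjusted p up to 0.115), and without the block Hmgn1 and Morf4l2 had adjusted p of 0.06 and 0.136.

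**Figure D4:**
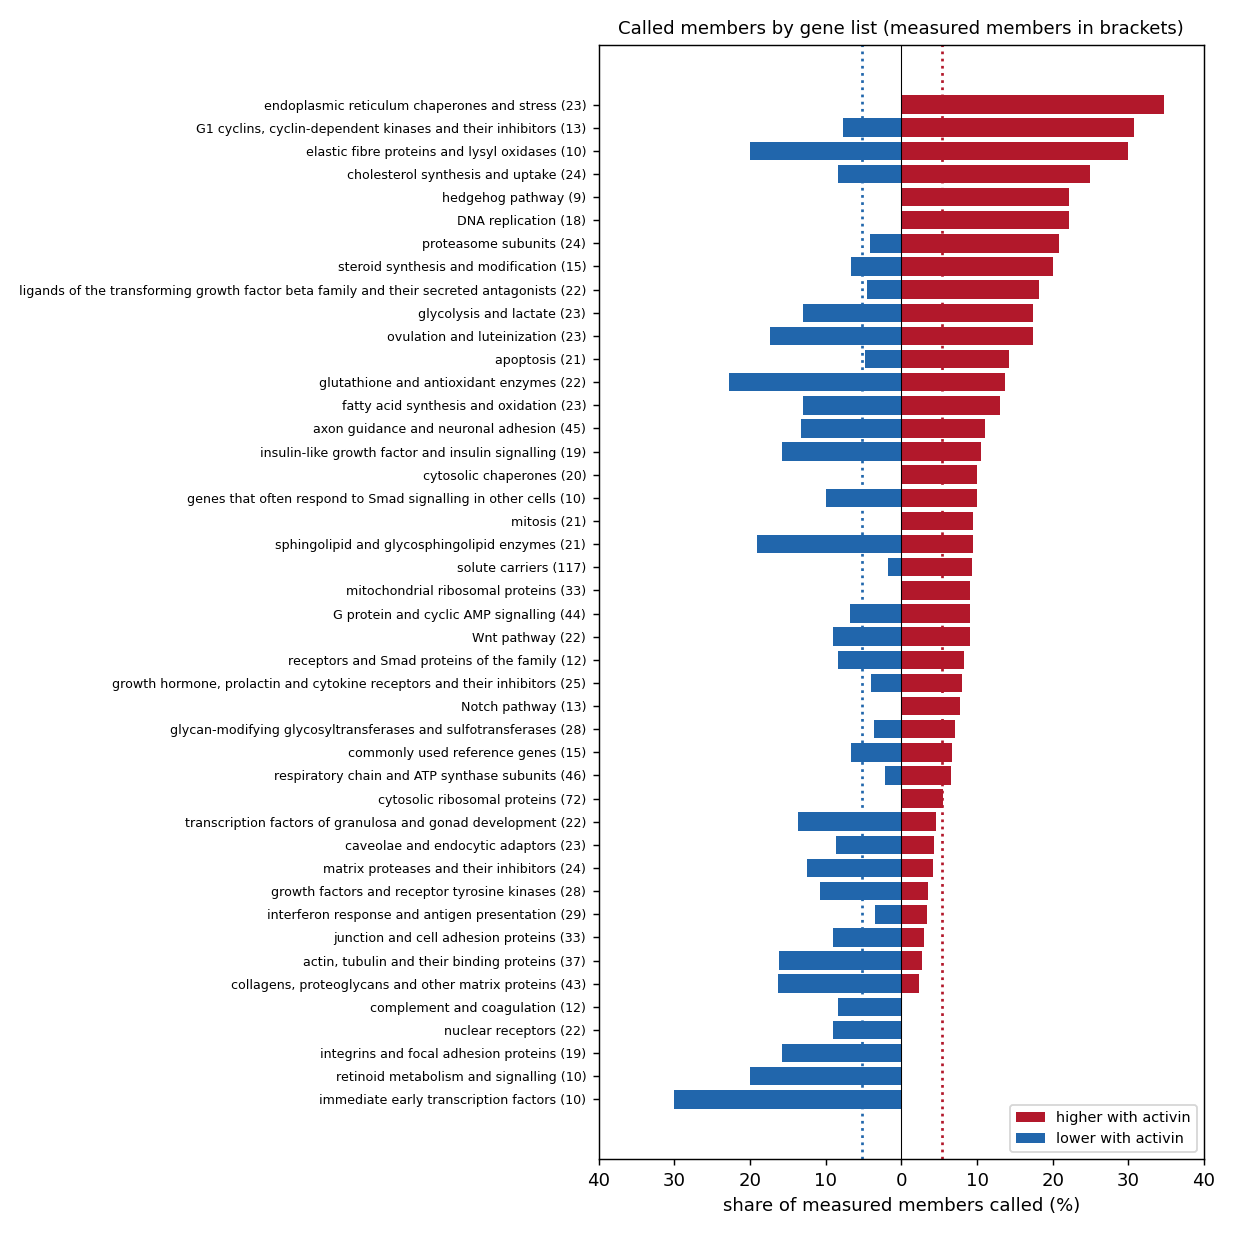
Share (%) of the measured members of each gene list that rose (red, to the right) or fell (blue, to the left) with activin, with the number measured in brackets. Lists without a called member and the cell marker lists are left out. The dotted lines are the shares of all named genes that rose (5.4%) and fell (5.19%), and the folding list of the endoplasmic reticulum has the longest bar to the right.

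Some genes answered by different amounts in different experiments. Eno1, the glycolytic enolase, rose by 1.27, 0.35, 1.49 and 0.31 in experiments 1 to 4 and Arrdc3, an arrestin-like adaptor, by 1.88, 0.78, 1.57 and 0.49. With Scarb1, Pfkl and Prkar2b these rises were larger in experiments 1 and 3 than in 2 and 4. Efl1, a GTPase of ribosome assembly, rose by 0.49, 1.47, 0.67 and 1.92, and Ptgis, prostacyclin synthase, by 0.70, 1.22, 0.63 and 2.18, both more in experiments 2 and 4. Other genes began at different levels and moved by similar amounts: the differences were 0.53, 0.56, 0.47 and 0.67 for Mgmt, a DNA repair enzyme, and -0.37, -0.42, -0.47 and -0.46 for Ankrd28, an ankyrin repeat protein. Mgmt and Ankrd28 were picked because the block lowered their SE most, a rule that selects this pattern. Fst, Col8a1 and Gstm1 changed by more than 2 in every experiment. The call for Eno1 ended without any 1 of the arrays PBS 1, activin 1, activin with follistatin 1, PBS 2, activin with follistatin 2, PBS 3, activin 3 and PBS 4 (adjusted p up to 0.175), that for Arrdc3 without array PBS 1 (adjusted p up to 0.052), that for Efl1 without any 1 of the arrays activin 2 and PBS 4 (adjusted p up to 0.0584) and that for Ptgis without array PBS 4 (adjusted p up to 0.0578). Without the block the adjusted p was 0.249 for Eno1, 0.482 for Mgmt and 0.394 for Ankrd28.

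**Figure D5:**
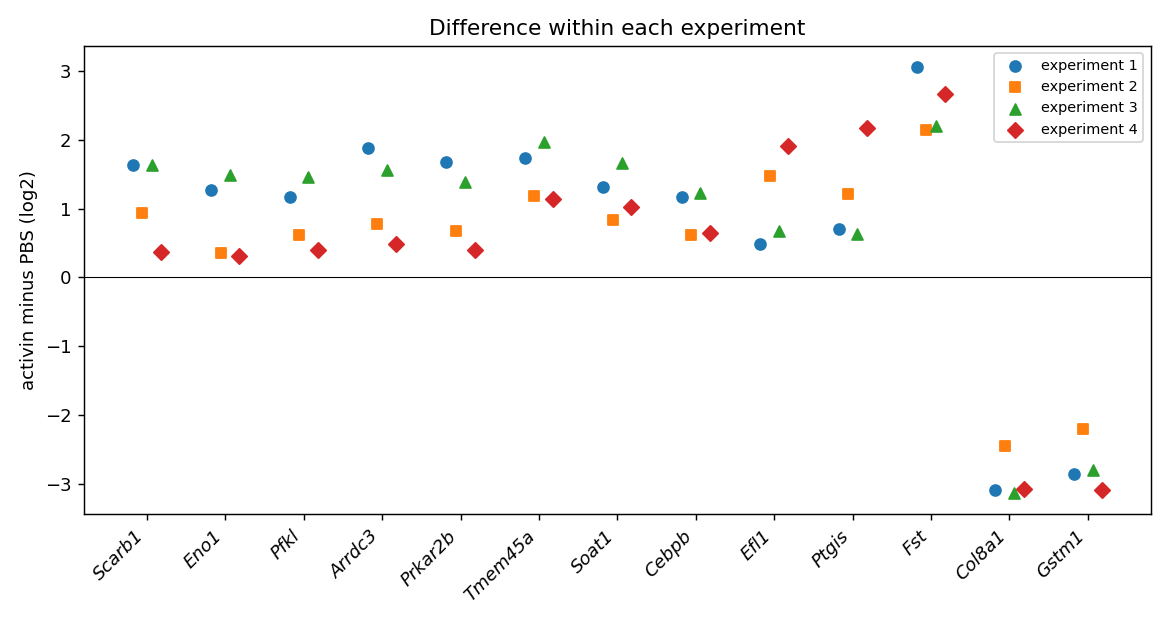
Difference activin minus PBS (log2) within each of the 4 experiments for 13 called genes, with 1 colour and shape for each experiment. Scarb1 rose by 1.64 in experiments 1 and 3 and by 0.94 and 0.37 in experiments 2 and 4, whereas the Col8a1 differences ran from -3.14 to -2.46.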

How the data were processed

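Total RNA from 12 cultures was measured on 12 one-colour arrays. Values were deposited on a log2 scale, already normalized between arrays by the authors; the scale was read from the values, and the submitters' processing notes name lumi 1.2.0 without its settings, so the method of normalization and any background correction are not given in the sources used here. The number of arrays limits the precision. Of 46116 probes 23 control spots were left out. Zero-padded numbers in the probe identifiers were read as Entrez gene numbers (82.6% of 11897 were in the RefSeq table, against 46.0% after adding 1), and 9 RefSeq accessions and 13 mitochondrial names were matched as well, all with symbols of GRCm38.p6. The other 36239 probes have no name here.

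From these values a linear model with moderated variances was fitted with limma 3.58.1 (R 4.3.3) over all 12 arrays, with treatment and experiment as terms, the contrast activin minus PBS and Benjamini-Hochberg adjustment over 46093 probes. The experiment number in the titles pairs the arrays: after group means were taken off, arrays of the same number correlated at 0.506 to 0.661 and others at -0.451 to 0.108. The fit was tested on simulated data. With the block it called 53.5% of probes given a difference of 0.3, 81% at 0.6 and 98% at 1.2. Of simulated probes without a difference it called 0.0506%. Changes of about 0.3 were thus often missed in the simulated data. Each difference was given to 200 of the 46093 probes, so fewer probes differed than were called in the data. Experiment effects were drawn at the size of the residual noise. The rates may therefore differ from those of the fit to these data. Named genes are the 12 largest rises and falls with 1 sign in all experiments and a signal above background, up to 6 called members with the smallest p on each of 53 gene lists, the 10 called genes of highest signal, the 10 whose SE the block lowered most, the 6 whose change varied most between experiments, and Fst, Cyp11a1, Star and Lhcgr. Some genes that meet this rule are not reported here. Members and lists were chosen with earlier results of these data known. Alternatives covered the block, the arrays used, the normalization, the filter on dim probes, the variance model, array weights, a fold threshold, the probe that stands for a gene, and leaving out each array or experiment.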

Additional observations from a re-analysis of the deposited data

Results flagged for a closer look

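In 11 of the 274 groups of 4 arrays formed by 137 of the genes described, 1 array stood apart from the other 3 by Dixon's test at the 95% level. This is 4.01% of the groups, and chance flags about 1 in 20. On the PBS array of experiment 4, Arhgef3 read 11.817 against 10.99 to 11.12 on the others, Morf4l2 14.426 against 14.12 to 14.15 and Mrps21 11.862 against 12.01 to 12.03. On the PBS array of experiment 2, Pfkm read 9.904 against 10.35 to 10.39 and Soat1 7.626 against 7.74 to 7.76. Gclm read 9.257 on the PBS array of experiment 1, against 8.80 to 8.86. Among activin arrays, Slc18a2 read 7.654 in experiment 2 against 8.72 to 8.92, and Hadhb 11.402 against 11.10 to 11.15. Gask1b read 10.173 in experiment 4 against 10.68 to 10.78, and Socs2 12.595 against 13.02 to 13.08. Cst3 read 13.394 in experiment 1 against 13.68 to 13.72. Arrays PBS 3 and activin 3 had none.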

How the results depend on the processing

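No called difference of 137 of the genes described changed sign, over 3424 values under the alternatives run. Some genes described, among them Xbp1 and Tgfbr1, are outside these 137. Without the replicate block 1342 probes were called, 762 higher and 580 lower, with 406 named genes. With experiment as a random replicate block there were 1600 (878 higher, 722 lower) and 476 named genes, at a consensus correlation of 0.0791. The first leaves the level differences between experiments in the error, and why the second called fewer was not tested. A test against a difference of 0.3 called 475 probes (243 higher, 232 lower) and 144 named genes, by its construction fewer. When 1 array was left out, counts ran from 1872 to 3097 probes, 938 to 1558 higher, 925 to 1539 lower and 576 to 941 named genes. Without PBS 1 they were 1872, 947 and 925, and without PBS 3 1873 and 938 higher. When 1 experiment was left out they ran from 1738 to 2579 probes, 871 to 1313 higher, 851 to 1266 lower and 543 to 779 named genes. The lowest were without experiment 1 (1755, with 871 higher, 884 lower and 554 genes) and experiment 3 (1738, with 887 higher, 851 lower and 543 genes). Under the other alternatives the counts of named genes lay between 713 and 954. Of the 137 genes, 48 lost their call without the block, 41 with the random block, 77 against 0.3, 9 with the 8 PBS and activin arrays alone (among them Bmp6, Bmpr1b, Ccnb1, Eno1, E2f6, Smad4 and Actb), 5 with limma-trend (among them Smad4, E2f6 and Ssr4) and 4 after quantile normalization (among them Actb and E2f6). Leaving out 1 array ended between 2 and 21 of these calls, most without PBS 1. Probe brightness near the control spots limits what can be seen: 3949 of the 8144 named genes were not above background in either group, and 7 of them were called.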

Other observations

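Several further gene groups were measured. An unadjusted p below 0.05, counted for some of them, was met by 1824 of all 8144 named genes. Of 20 cytosolic chaperones 2 rose and 0 fell (10% called, 6 at an unadjusted p below 0.05), with a median difference of -0.0040. Among 22 nuclear receptors 2 fell and 0 rose (9.09% called, 3 at an unadjusted p below 0.05, and 1 fall without the block). The Notch pathway gave 1 rise among 13 genes (7.69% called). The Wnt pathway gave 2 rises and 2 falls among 22 (18.2%), and the hedgehog pathway 2 rises among 9 (22.2%). Genes of the interferon response and antigen presentation gave 1 rise and 1 fall among 29 (6.90%), and complement and coagulation genes 1 fall among 12 (8.33%). Caveolar and endocytic genes gave 1 rise and 2 falls among 23 (13%), against 10.6% of all named genes.

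Markers of other cells in the ovary varied in level. Group means reached 8.88 with PBS and 9.09 with activin for the surface epithelial marker Krt8, and 8.01 and 7.76 for the smooth muscle marker Acta2. None of 10 leukocyte, 5 oocyte, 3 smooth muscle and 1 red cell markers was called by limma (1, 1, 0 and 0 at an unadjusted p below 0.05, and 0 without the block). Of 6 endothelial and 6 surface epithelial markers 1 fell in each list (16.7% called, against 10.6% of all named genes). Olfactory receptors, which granulosa cells are not known to use, gave 0 calls among 323 genes (8 at an unadjusted p below 0.05, and 0 without the block). Only 22 of the 323 lay above background, where few calls can be seen below it, so this lack of calls says little. The oocyte markers had their highest mean signal in experiment 1 in both groups, 7.56 with PBS and 7.74 with activin, against 7.09 to 7.15 on the other arrays.

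The largest rise and the largest fall on the array belong to probes without a name, at 4.24 and -3.57.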
